A study of Mus musculus with 9 samples.

Results

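The genes described here are the chaperones and folding enzymes of the endoplasmic reticulum (ER) other than gp96, together with the sensors, transcription factors and targets of the unfolded protein response. They were taken from a list of 40 gene symbols, and all 40 were found among the 25500 entries of the FPKM table. FPKM here are fragments per kilobase of exon, divided by 1 constant per library. Tregs were sorted as GFP+ cells from spleens of *Foxp3* eGFP-Cre-ERT2 *Hsp90b1* fl/fl mice (KO) and of *Foxp3* eGFP-Cre-ERT2 *Hsp90b1* WT/WT mice (WT), both on a C57BL/6 background. Because Cre is expressed from the *Foxp3* locus and is active only with tamoxifen, *Hsp90b1*, the gene for the ER-resident HSP90 protein gp96, was deleted in adult Tregs and not in other cells by design. Both genotypes received tamoxifen at 75 mg/kg for 10 days, the mice of the study were 8 to 12 weeks old, and 1000000 cells per sample were used for RNA. The labels list 5 KO libraries (KO 1 to KO 5) and 4 WT libraries (WT 1 to WT 4), while the design text gives 4 mice per genotype and does not say which KO libraries these are.

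The ER folds proteins that are secreted or placed in membranes. BiP, the main ER HSP70, binds unfolded chains with the help of J proteins and nucleotide exchange factors, calnexin and calreticulin bind chains that carry sugars, and protein disulfide isomerases form and rearrange disulfide bonds. When unfolded chains accumulate, IRE1, PERK and ATF6 in the ER membrane start the unfolded protein response: IRE1 splices *Xbp1* mRNA, PERK phosphorylates eIF2 so that *Atf4* mRNA is translated, and ATF6 is cut in the Golgi to release a transcription factor. Much of this signaling is not visible in mRNA levels per gene, since splicing of *Xbp1*, translation of *Atf4* and cleavage of ATF6 need not change the FPKM of the gene.

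*Hsp90b1* (chr10:86690209-86705509, GRCm38) measured 2.13, 2.73, 3.11, 3.09 and 1.77 FPKM in KO 1 to KO 5, against 62.9, 50.7, 44.4 and 51.5 FPKM in WT 1 to WT 4. It was thus low in every library labeled KO. The Treg markers *Foxp3*, *Cd4*, *Cd3e*, *Ctla4*, *Ikzf2* and *Il2ra* together summed to 617 to 737 FPKM in KO libraries and to 691 to 751 FPKM in WT libraries. Of these 6 markers *Cd4* and *Ikzf2* rose by 0.19 and 0.14 on the log2 scale, and *Il2ra*, the high-affinity chain of the IL-2 receptor, fell by 1.32, with 42.0 to 50.8 FPKM in KO libraries and 101 to 127 FPKM in WT libraries. Reads recovered from the FPKM totaled 12083236 to 24571244 per KO library and 13910841 to 16696945 per WT library. KO 1 and WT 1 stood far from the other 7 libraries in the same direction, at −67.6 and −69.9 on a first principal component that held 58.6% of the variance, with the others between 8.88 and 26.3. KO and WT were therefore compared in all 9 libraries with limma on log2(FPKM + 1), with genotype and 1 term for KO 1 and WT 1 in the model. What sets these libraries apart is not given in the labels, and within this pair each genotype has a single library. Log2 differences below are KO minus WT on this scale, and for genes with low FPKM they are smaller than the true change.

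Of the 40 genes, all of which passed the filter on low values, 20 passed an adjusted *P* of 0.05 with a higher level in KO Tregs, 2 passed with a lower level and 18 did not pass. Of all 12312 genes tested, 19.3% passed with a higher and 17.0% with a lower level. In 20 genes KO 2 to KO 5 lay wholly above WT 2 to WT 4 with KO 1 above WT 1, and in 3 genes they lay wholly below, as did 19.3% and 17.0% of all genes tested. The median log2 difference was 0.18 for the 40 genes and 0.02 for all genes tested, and 34 of the 40 genes had a positive difference. The 20 genes that rose did so by 0.13 to 0.57 on the log2 scale, so the changes were small beside that of *Hsp90b1*, whose log2 difference was −3.91 (SE 0.14). By role, 6 of 7 disulfide enzymes, 4 of 8 genes for BiP and its partners, 1 of 3 lectin chaperone genes and 1 of 7 isomerases and other folding factors rose, as did 3 of 6 sensors and proteases and 5 of 9 transcription factors and stress targets. Both genes that fell, *Cnpy2* and *Mbtps1*, belonged to groups in which other genes rose.

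These calls rest on the term for KO 1 and WT 1. Without it, 2 of the 40 genes rose in all 9 libraries (*Atf6* and *Eif2ak3*; 3.21% of all genes tested), and 4 rose when KO 2 to KO 5 were set against all 4 WT libraries, a comparison that keeps only 1 of these libraries (*Atf6*, *Atf4*, *Eif2ak3* and *Txndc5*; 6.58% of all genes tested). None of the 40 fell in either comparison, against 3.55% and 6.68% of all genes tested. At an unadjusted *P* under 0.05 limma gave 8 higher and 0 lower in all 9 libraries and 8 higher and 1 lower in the other comparison. The share of all genes tested at this unadjusted threshold was not counted, so no excess can be read from these counts. When both libraries were left out, 17 rose and 3 fell, against 19.5% and 17.1% of all genes tested. With KO 1 or WT 1 left out, the term took up the other, so these fits gave the same differences as leaving out both. Of the 20 genes that rose, 16 kept the call when each library was left out in turn. The 4 that did not were *Hspa5*, *P4hb*, *Trib3* and *Ero1lb*. With reads recovered from the FPKM and limma-voom, 22 of 38 genes rose and 1 fell (20.2% and 17.4% of all genes tested), and with the replicate number as a block 18 rose and 1 fell (15.0% and 13.1%). Under this block *Canx*, *P4hb*, *Trib3*, *Ero1lb* and *Cnpy2* no longer passed, with adjusted *P* values of 0.0648, 0.147, 0.0843, 0.136 and 0.106, while *Dnajb9* and *Pdia4* passed at 0.0462 and 0.0204. Counts without a filter were 16 and 2 (8.65% and 9.04%), above 5 FPKM 18 and 2 of 35 genes (23.8% and 19.2%), with a pseudocount of 0.1 20 and 2 (19.5% and 16.8%) and with median-ratio scaling 20 and 2 (19.3% and 17.0%). The median-ratio factor was 1.006 in each of the 9 libraries, so this scaling could not change the calls.

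**Figure D1:**
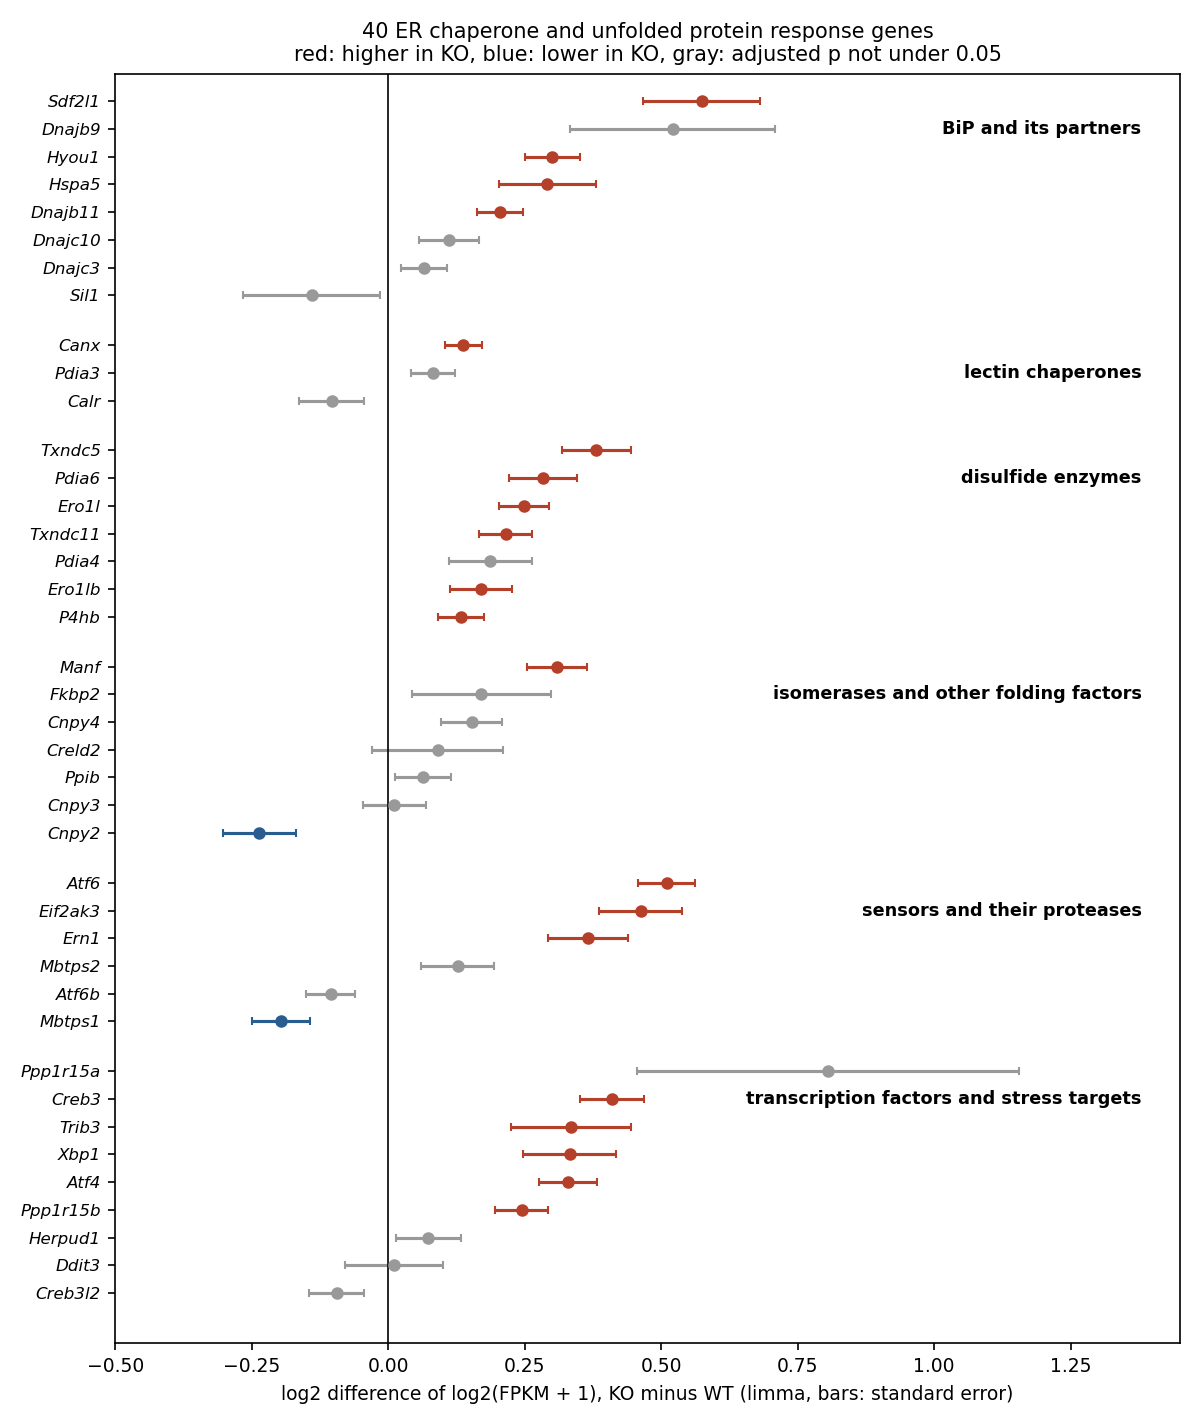
Log2 difference of log2(FPKM + 1), KO minus WT, from limma for the 40 genes by role; points are estimates and bars are standard errors. Red marks the 20 genes that were higher in KO Tregs, blue the 2 that were lower, and gray the 18 that did not pass an adjusted p of 0.05; *Ppp1r15a* has the largest estimate, 0.81, and a standard error of 0.35.

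Markers of other cells moved with genotype as well. Of the 7 plasma cell markers that could be tested, 5 fell and 1, *Derl3*, which is also a target of the unfolded protein response, rose, and the 9 listed markers summed to 205 to 485 FPKM in KO libraries, against 628 to 1951 FPKM in WT libraries. The plasma cell surface marker *Sdc1* stayed at or under 0.187 FPKM in KO libraries and at or under 0.716 FPKM in WT libraries, and *Ighg1*, the heavy chain of class-switched antibody, was at 0 in KO 3, KO 4 and KO 5. B cell markers summed to 39.3 to 81.5 FPKM in KO libraries and to 82.7 to 113 FPKM in WT libraries, with 3 of 5 tested markers lower. Plasma cells are rich in ER chaperones, and the part of these cells in the values of the 40 genes was not tested. Mean plasma cell marker levels, as log2(FPKM + 1), were 1.26 to 2.80 in KO libraries and 3.23 to 4.69 in WT libraries. For B cell markers they were 1.05 to 1.25 and 1.34 to 1.86. Neither mean overlaps between genotypes, so with these covariates a lost call cannot be told apart from a removal of genotype itself. With the mean plasma cell marker level as a covariate, 13 of the 40 genes rose and 1 fell (11.0% and 9.52% of all genes tested), and 10 of the 20 kept the call. With the mean B cell marker level, 10 rose and 1 fell (6.86% and 5.90%), and 9 of the 20 kept the call. The calls of *Atf4*, *Eif2ak3*, *Ero1l*, *Ppp1r15b*, *Txndc11*, *Canx*, *Hspa5*, *P4hb*, *Trib3*, *Ero1lb* and *Cnpy2* were lost with both covariates and that of *Dnajb11* with the B cell markers. In bulk samples, fewer cells of a type and less RNA per cell cannot be told apart.

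Sequence upstream of these genes was examined next, because the ER stress response element (ERSE), to which ATF6 and XBP1 bind together with NF-Y, defines many chaperone promoters. In RefSeq promoter windows of GRCm38.p6, which run from 250 bases before to 50 bases after the start of a gene, 35 of the 40 genes were matched, and *Atf6*, *Hyou1*, *Manf*, *Ppp1r15b* and *Sil1* were not. The 40 genes were listed for ER folding and the unfolded protein response, so a high share with an ERSE can follow from that choice alone. Only exact matches were counted, so variant elements were missed. On either strand, an ERSE (CCAAT, any 9 bases, CCACG) was present in the windows of 7 of the 35 genes (20.0%), against 37 of 27025 genes in the table (0.137%). The following stretches of 80 bases, written in the direction of the gene and ending before its RefSeq start, show these elements, with the outer blocks of the ERSE in capitals (read on the other strand in *Ero1lb*, *Calr* and *Creld2*, where CCACG appears as CGTGG and CCAAT as ATTGG). The first 4 genes rose in KO Tregs, as did 19.3% of all genes tested, and the other 3 did not pass.
Hspa5, chr2:34771995-34772074: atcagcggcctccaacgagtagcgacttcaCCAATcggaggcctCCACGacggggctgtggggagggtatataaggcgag
Canx, chr11:50325769-50325848: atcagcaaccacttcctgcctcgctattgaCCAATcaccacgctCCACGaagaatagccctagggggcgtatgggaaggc
Pdia6, chr12:17266461-17266540: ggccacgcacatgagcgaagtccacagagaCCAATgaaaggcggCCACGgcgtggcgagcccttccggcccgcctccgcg
Ero1lb, chr13:12565652-12565731: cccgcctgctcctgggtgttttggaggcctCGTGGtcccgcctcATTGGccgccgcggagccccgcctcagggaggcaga
Calr, chr8:84847044-84847123: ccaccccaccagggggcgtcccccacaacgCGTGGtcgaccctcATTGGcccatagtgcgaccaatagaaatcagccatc
Dnajc3, chr14:118937797-118937876: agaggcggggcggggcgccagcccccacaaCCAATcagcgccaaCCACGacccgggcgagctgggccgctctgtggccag
Creld2, chr15:88819490-88819569: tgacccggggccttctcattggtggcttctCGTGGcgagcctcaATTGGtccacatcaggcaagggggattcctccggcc

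The ERSE-II (ATTGG, any base, CCACG) was found in 2 of the 35 genes, *Herpud1* and *Dnajb11*, and in 12 genes of the table. *Herpud1* and *Dnajb11* code for an ER membrane protein of ER-associated degradation and for the BiP cochaperone ERdj3. An element of the XBP1 type (TGACGTGG) was present in *Txndc5* and *Txndc11* (5.71%, against 0.714% of all genes) and an element of the ATF4 type (TGATGNAA) in *Cnpy2*, *Herpud1*, *Trib3* and *Txndc5* (11.4%, against 4.51%). Of the 9 genes with an ERSE or ERSE-II, 5 rose and 4 did not pass, and of the 26 matched genes with neither element, 11 rose, 2 fell and 13 did not pass. Of all genes tested, 19.3% rose and 17.0% fell. Among the 5, *Hspa5* and *Ero1lb* lost the call when some single libraries were left out, and *Canx* and *Ero1lb* lost it with the replicate number as a block.

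Among the sensors, the mRNAs of all 3 branches were higher in KO Tregs. *Atf6*, the membrane-bound factor of the ATF6 branch, measured 6.49, 5.52, 5.66, 5.59 and 6.29 FPKM in KO 1 to KO 5, against 4.00, 3.95, 3.74 and 3.77 FPKM in WT 1 to WT 4. Every KO library was above every WT library, and the mean over KO 2 to KO 5 was 1.51 times that over WT 2 to WT 4, with a ratio of 1.62 between KO 1 and WT 1. Its log2 difference of 0.51 (SE 0.05, adjusted *P* = 0.000153) had the smallest *P* of the 40 genes. *Eif2ak3*, which encodes PERK, measured 5.90, 7.53, 7.36, 7.89 and 7.16 FPKM in KO 1 to KO 5, against 5.26, 4.83, 5.01 and 4.48 FPKM in WT 1 to WT 4 (log2 difference 0.46, SE 0.08, adjusted *P* = 0.00193). The groups did not overlap, and KO 1 was the lowest KO library. The call of *Eif2ak3* was lost with the B cell covariate, with a difference of 0.20 (adjusted *P* = 0.287), and with the plasma cell covariate, with 0.37 (adjusted *P* = 0.0854). *Ern1*, which encodes IRE1α, measured 3.39, 4.10, 3.82, 4.22 and 3.70 FPKM in KO 1 to KO 5, against 1.91, 3.19, 2.76 and 3.13 FPKM in WT 1 to WT 4. All KO libraries were again above all WT libraries, by a log2 difference of 0.37 (SE 0.07, adjusted *P* = 0.00488).

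The genes for the proteases that cut ATF6 in the Golgi did not follow. *Mbtps1*, the first protease to cut, was described after its values were seen and measured 15.0, 18.1, 18.2, 17.1 and 19.1 FPKM in KO 1 to KO 5, against 20.0, 19.7, 20.3 and 20.1 FPKM in WT 1 to WT 4. Every KO library was below every WT library, and the gene fell by 0.20 on the log2 scale (SE 0.05, adjusted *P* = 0.0198). *Mbtps2*, the second protease, had a log2 difference of 0.13 (SE 0.07) and did not pass, and *Atf6b*, the close relative of *Atf6*, had one of −0.11 (SE 0.04) with an adjusted *P* of 0.0984.

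**Figure D2:**
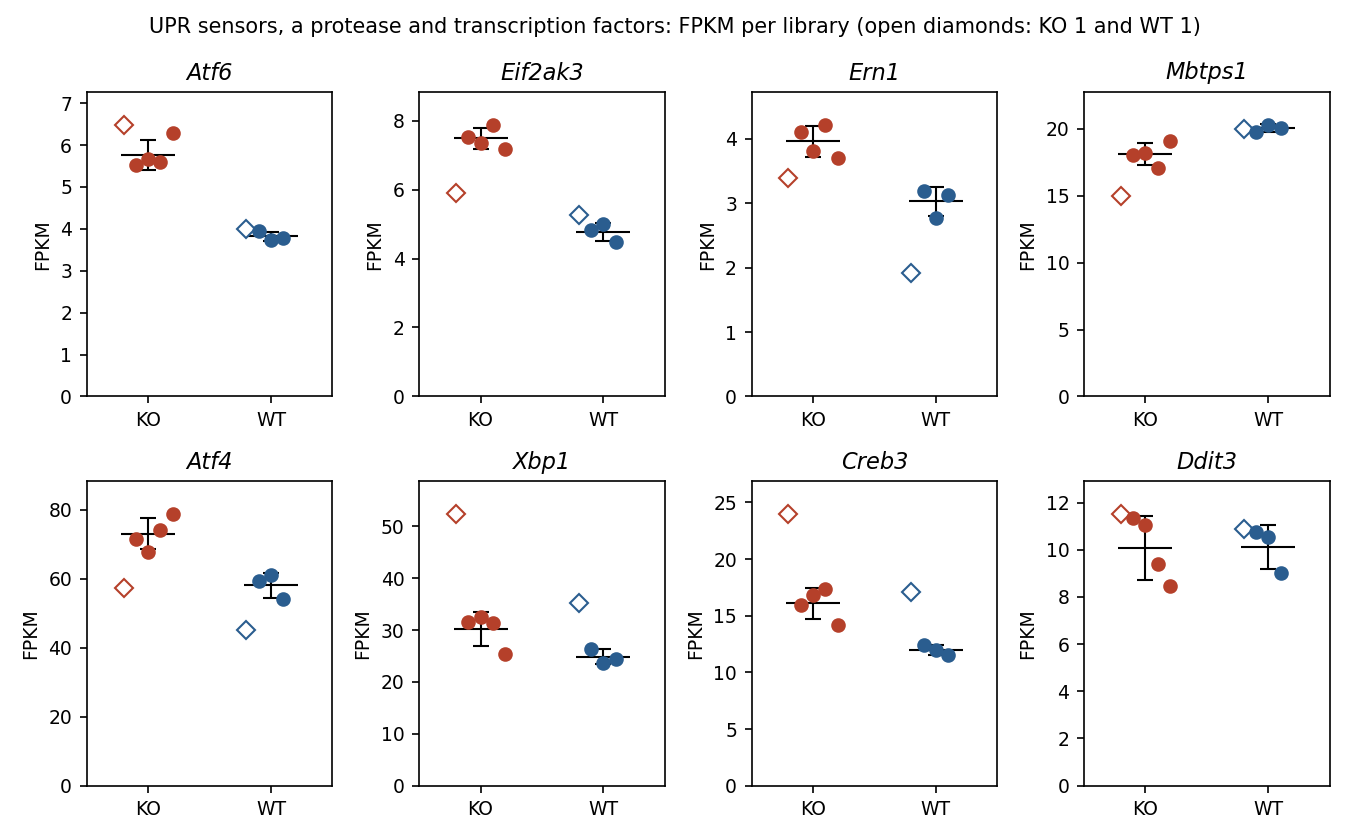
FPKM in each library for 3 sensors, the protease *Mbtps1* and 4 transcription factors, KO at the left and WT at the right; open diamonds are KO 1 and WT 1, filled points the other libraries, and bars the mean ± SD of the filled points. The KO libraries lie above the WT libraries for *Atf6*, *Eif2ak3* and *Ern1* and below them for *Mbtps1*, while those of *Ddit3* overlap.

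The transcription factors of the branches differed from one another. *Atf4*, the factor translated when PERK is active, measured 57.4, 71.6, 67.9, 74.2 and 78.9 FPKM in KO 1 to KO 5, against 45.3, 59.2, 61.0 and 54.1 FPKM in WT 1 to WT 4. KO 2 to KO 5 were all above WT 2 to WT 4, and KO 1 was above WT 1, with ratios of 1.26 and 1.27 (log2 difference 0.33, SE 0.05, adjusted *P* = 0.00164). The call of *Atf4* was lost with both covariates, with a difference of 0.19 (adjusted *P* = 0.212) for the B cell and 0.18 (adjusted *P* = 0.0939) for the plasma cell markers. *Ddit3*, which encodes CHOP, the factor of prolonged ER stress that ATF4 induces, measured 11.5, 11.4, 11.1, 9.39 and 8.48 FPKM in KO 1 to KO 5, against 10.9, 10.8, 10.5 and 9.03 FPKM in WT 1 to WT 4. The groups overlapped, and the log2 difference was 0.01 (SE 0.09, adjusted *P* = 0.944).

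*Xbp1*, the substrate of IRE1, measured 52.4, 31.5, 32.5, 31.3 and 25.4 FPKM in KO 1 to KO 5, against 35.1, 26.4, 23.7 and 24.5 FPKM in WT 1 to WT 4. KO 5 lay within the range of WT 2 to WT 4 and the other KO libraries lay above it (log2 difference 0.33, SE 0.08, adjusted *P* = 0.0153). *Creb3*, an ER membrane factor related to ATF6, measured 24.0, 15.9, 16.8, 17.4 and 14.2 FPKM in KO 1 to KO 5, against 17.1, 12.4, 11.96 and 11.6 FPKM in WT 1 to WT 4. It was 1.34 times as high in KO 2 to KO 5 as in WT 2 to WT 4 (log2 difference 0.41, SE 0.06, adjusted *P* = 0.000905), whereas its relative *Creb3l2* had a log2 difference of −0.09 (SE 0.05) and did not pass.

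Genes that act after PERK moved unevenly. *Ppp1r15b*, which encodes the constitutive subunit of the eIF2 phosphatase, measured 46.0, 35.2, 36.0, 34.7 and 39.4 FPKM in KO 1 to KO 5, against 38.2, 32.2, 30.8 and 28.9 FPKM in WT 1 to WT 4. Apart from WT 1, all WT libraries were below all KO libraries (log2 difference 0.24, SE 0.05, adjusted *P* = 0.00457). Its difference was 0.15 with the B cell and 0.11 with the plasma cell covariate, and neither passed. Its inducible counterpart *Ppp1r15a*, described after its values were seen, measured 20.3, 52.5, 56.1, 63.1 and 112 FPKM in KO 1 to KO 5, against 21.8, 37.8, 47.4 and 17.5 FPKM in WT 1 to WT 4. KO 2 to KO 5 were above all WT libraries, but KO 1 was below WT 1, and the log2 difference of 0.81 (SE 0.35) did not pass (adjusted *P* = 0.106). It was 0.88 with limma-voom on recovered reads, which called it (adjusted *P* = 0.0363), and −0.75 or −0.51 with the B cell or plasma cell markers as a covariate. *Trib3*, a pseudokinase induced by ATF4 and CHOP, was near the floor of the table, at 1.40 to 2.89 FPKM in KO libraries and 0.876 to 1.47 FPKM in WT libraries, with 29 to 134 reads per library. Its call (log2 difference 0.33, SE 0.11, adjusted *P* = 0.0425) was lost when any library other than KO 5 and WT 2 was left out, with adjusted *P* values of up to 0.128. *Herpud1*, a target of all 3 branches, had a log2 difference of 0.07 (SE 0.06) and did not pass.

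BiP was among the genes of highest level. *Hspa5*, which encodes it, measured 184, 107, 112, 113 and 141 FPKM in KO 1 to KO 5, against 150.3, 100.1, 103 and 85.4 FPKM in WT 1 to WT 4. Its levels in KO 2 to KO 5 were all above those in WT 2 to WT 4, and KO 1 was above WT 1, with ratios of 1.23 and 1.22. The log2 difference was 0.29 (SE 0.09, adjusted *P* = 0.0310). This call was lost without KO 1, WT 1, WT 2 or WT 4, with adjusted *P* values of 0.0530 to 0.0819, and the difference was 0.06 with the B cell and −0.02 with the plasma cell markers as a covariate. It was called with limma-voom, with a difference of 0.29 (adjusted *P* = 0.00642).

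The partners of BiP that act at different steps of its cycle were also higher. *Hyou1*, the large ER chaperone that exchanges nucleotide on BiP, measured 24.3, 17.6, 17.4, 17.1 and 15.0 FPKM in KO 1 to KO 5, against 19.2, 13.2, 13.6 and 13.6 FPKM in WT 1 to WT 4 (log2 difference 0.30, SE 0.05, adjusted *P* = 0.00214). *Sdf2l1* measured 44.6, 19.6, 19.3, 17.1 and 14.9 FPKM in KO 1 to KO 5, against 23.6, 10.8, 13.4 and 13.0 FPKM in WT 1 to WT 4. It had the largest log2 difference of the genes that rose, 0.57 (SE 0.11, adjusted *P* = 0.00360), and the highest ratio of KO 1 to WT 1 in its group, 1.89. *Dnajb11*, the J protein ERdj3, measured 43.1, 27.3, 25.9, 26.5 and 25.3 FPKM in KO 1 to KO 5, against 36.5, 21.4, 24.2 and 22.8 FPKM in WT 1 to WT 4 (log2 difference 0.20, SE 0.04, adjusted *P* = 0.00633). For these 3 genes, KO 2 to KO 5 did not overlap WT 2 to WT 4, and KO 1 was above WT 1.

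Of the other BiP partners, none passed. *Dnajb9*, a J protein that holds IRE1 inactive through BiP, was described after its values were seen and measured 18.4, 11.7, 12.5, 13.7 and 23.2 FPKM in KO 1 to KO 5, against 13.9, 10.1, 11.0 and 8.03 FPKM in WT 1 to WT 4. KO 5 was the highest library, the groups did not overlap outside the KO 1 and WT 1 pair, and the log2 difference was 0.52 (SE 0.19, adjusted *P* = 0.0586). It passed without KO 5, with a log2 difference of 0.36 and an adjusted *P* of 0.0192, without KO 2, above 5 FPKM and with limma-voom (adjusted *P* = 0.0236), and was 0.56 with limma-voom and −0.19 with the plasma cell markers as a covariate. *Dnajc10* and *Dnajc3*, J proteins of disulfide reduction and of PERK inhibition, had log2 differences of 0.11 (SE 0.05) and 0.07 (SE 0.04). *Sil1*, a nucleotide exchange factor of BiP like *Hyou1*, had one of −0.14 (SE 0.12).

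**Figure D3:**
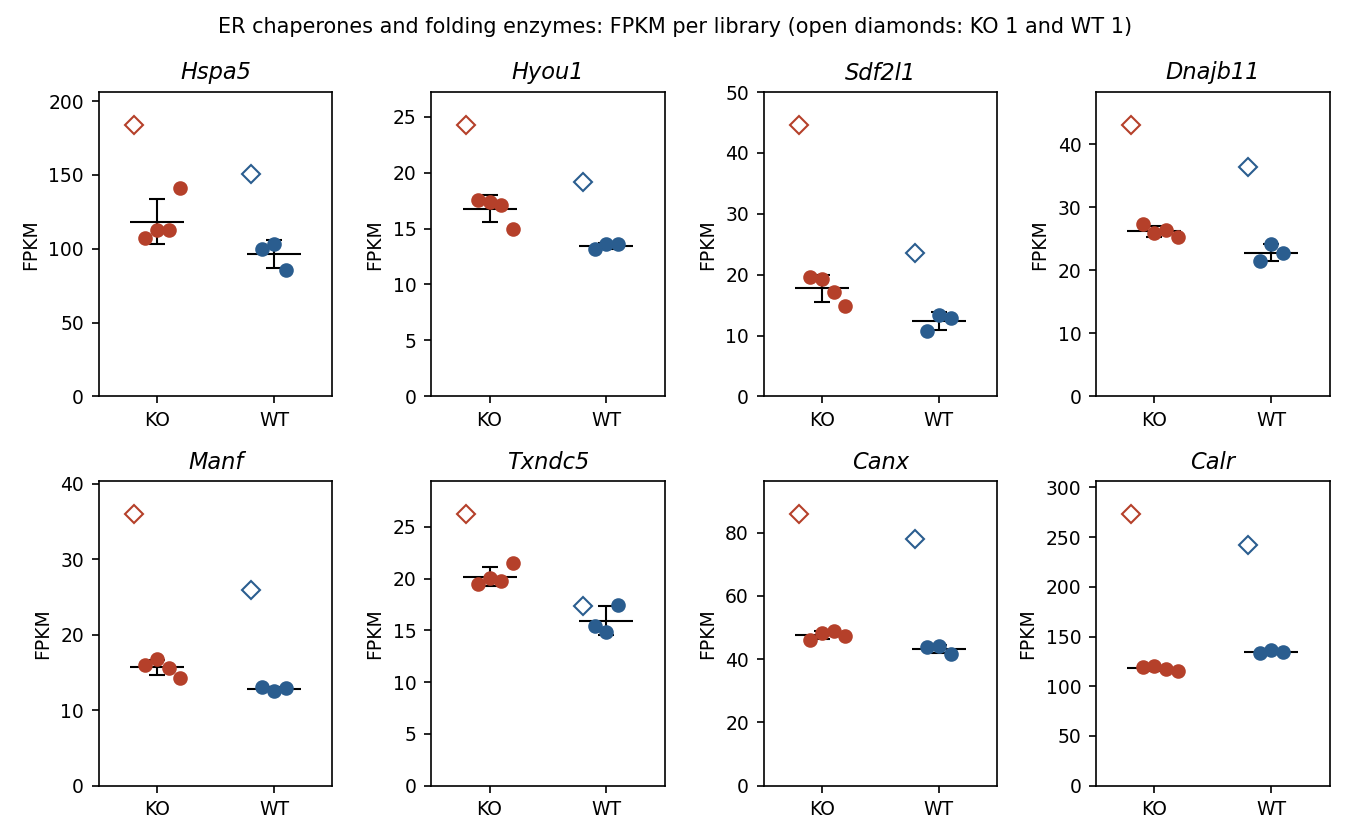
FPKM in each library for 8 chaperones and folding enzymes, KO at the left and WT at the right; open diamonds are KO 1 and WT 1, filled points the other libraries, and bars the mean ± SD of the filled points. KO 1 and WT 1 lie above the filled points of their genotype in 7 of the 8 genes and by the widest margin in *Calr*, *Manf* and *Sdf2l1*; WT 1 lies among the WT points for *Txndc5*.

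Of the lectin chaperones and their partner, which hold glycoproteins while they fold, 1 of 3 rose, against 19.3% of all genes tested. *Calr* and *Pdia3* had the highest FPKM of the 40 genes in WT 2 to WT 4. *Canx*, membrane-bound calnexin, measured 86.0, 46.1, 48.2, 49.0 and 47.4 FPKM in KO 1 to KO 5, against 78.0, 43.9, 44.2 and 41.7 FPKM in WT 1 to WT 4. KO 2 to KO 5 lay above WT 2 to WT 4 by a ratio of 1.10, and the ratio of KO 1 to WT 1 was also 1.10 (log2 difference 0.14, SE 0.03, adjusted *P* = 0.0123). *Pdia3*, the disulfide isomerase that calnexin and calreticulin recruit, measured 268, 122, 124, 126 and 119 FPKM in KO 1 to KO 5, against 232, 123, 119 and 114 FPKM in WT 1 to WT 4, and its groups overlapped (log2 difference 0.08, SE 0.04, adjusted *P* = 0.155). *Calr*, soluble calreticulin, was described after its values were seen and measured 273, 120, 121, 117 and 115 FPKM in KO 1 to KO 5, against 242, 134, 136 and 134 FPKM in WT 1 to WT 4. The levels of KO 2 to KO 5 were all below those of WT 2 to WT 4, with a ratio of 0.879, but KO 1 was above WT 1, and the log2 difference of −0.10 (SE 0.06) did not pass (adjusted *P* = 0.209). Without KO 1 or without WT 1, *Calr* was called lower, with a difference of −0.19 (adjusted *P* = 0.00320 and 0.00333). These fits give the same difference as the one without both libraries.

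All 7 disulfide enzymes had positive differences, and 6 rose. Of all genes tested 19.3% rose, and the share with a positive difference was not counted. *Txndc5*, a protein disulfide isomerase with thioredoxin domains that is abundant in plasma cells, measured 26.2, 19.4, 20.0, 19.7 and 21.5 FPKM in KO 1 to KO 5, against 17.4, 15.4, 14.8 and 17.5 FPKM in WT 1 to WT 4. Every KO library was above every WT library (log2 difference 0.38, SE 0.06, adjusted *P* = 0.00200). *Ero1l*, the oxidase that recharges protein disulfide isomerases, measured 14.2, 10.1, 9.86, 10.1 and 10.8 FPKM in KO 1 to KO 5, against 10.8, 8.44, 8.91 and 8.67 FPKM in WT 1 to WT 4 (log2 difference 0.25, SE 0.05, adjusted *P* = 0.00353). For this gene too, KO 2 to KO 5 were above WT 2 to WT 4.

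The other disulfide enzymes were *Pdia6* and *Txndc11*, with log2 differences of 0.28 (SE 0.06) and 0.22 (SE 0.05), *Ero1lb*, the second ER oxidase, with 0.17 (SE 0.06), and *P4hb*, the founding protein disulfide isomerase, with 0.13 (SE 0.04). The call of *P4hb* (adjusted *P* = 0.0378) was lost when any library other than KO 2 and KO 3 was left out, with adjusted *P* values of up to 0.0926, and that of *Ero1lb* (adjusted *P* = 0.0444) when any library other than KO 1 and WT 1 was left out, with values of up to 0.119. With the B cell or plasma cell covariate, the difference of *Ero1lb* was 0.08 or 0.09. *Pdia4* had a log2 difference of 0.19 (SE 0.08, adjusted *P* = 0.0881) and passed when KO 5 was left out, with a difference of 0.25 and an adjusted *P* of 0.00478, and with the plasma cell covariate, with 0.44 and 0.00596, besides the block.

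Of the 7 prolyl isomerases and other folding factors, 1 rose and 1 fell, against 19.3% and 17.0% of all genes tested. *Manf*, a secreted factor that also binds BiP in the ER, measured 36.0, 15.9, 16.8, 15.7 and 14.3 FPKM in KO 1 to KO 5, against 25.9, 13.0, 12.6 and 13.0 FPKM in WT 1 to WT 4 (log2 difference 0.31, SE 0.05, adjusted *P* = 0.00277). The groups did not overlap outside KO 1 and WT 1, and KO 1 was 1.39 times WT 1. *Cnpy2*, a canopy family protein of the ER, measured 39.6, 17.5, 15.3, 16.2 and 15.2 FPKM in KO 1 to KO 5, against 39.9, 18.8, 21.2 and 20.1 FPKM in WT 1 to WT 4. It fell by 0.24 on the log2 scale (SE 0.07, adjusted *P* = 0.0235), and this call was lost without KO 3, WT 3 or WT 4, with adjusted *P* values of up to 0.0736, and with the B cell or plasma cell covariate, with differences of −0.08 and −0.11. *Cnpy3*, a cochaperone that gp96 needs to fold Toll-like receptors, measured 12.5 to 16.6 FPKM in KO libraries and 12.5 to 15.5 FPKM in WT libraries, with a log2 difference of 0.01 (SE 0.06). *Cnpy4*, *Fkbp2*, *Creld2* and *Ppib* had log2 differences of 0.15, 0.17, 0.09 and 0.06 and did not pass, with adjusted *P* values of 0.0632, 0.332, 0.592 and 0.367, and *Cnpy4* passed when KO 5 was left out (adjusted *P* = 0.0473).

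The difference between KO 1 with WT 1 and the other 7 libraries was larger than the difference between genotypes for many of the 40 genes. Its median was 0.48 on the log2 scale for the 40 genes and 0.09 for all genes tested, and 19 of the 40 genes lay above 0.5 and 7 above 1, against 26.5% and 6.33% of all genes tested. Of the 25 chaperones and folding enzymes, 16 were above 0.5, with a median of 0.66, while 3 of the 15 sensors, proteases, factors and stress targets were, with a median of 0.19. *P4hb* had the largest value, 1.14, which is 2.20-fold on the scale of the model, and *Ppp1r15a* the lowest, −1.12. *Atf4* and *Ern1* were lower in KO 1 and WT 1, by −0.35 and −0.32, while the chaperones *Calr* and *Pdia3* were higher, by 1.03 and 1.04. *Malat1*, a nuclear noncoding RNA, measured 30.6 FPKM in KO 1 and 245 to 374 FPKM in KO 2 to KO 5, against 24.9 FPKM in WT 1 and 182 to 279 FPKM in WT 2 to WT 4, so it moved with this difference. *Malat1* also moved with genotype, as it was higher in KO Tregs (log2 difference 0.44, SE 0.15, adjusted *P* = 0.0494), and its part in the values of the 40 genes was not tested.

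**Figure D4:**
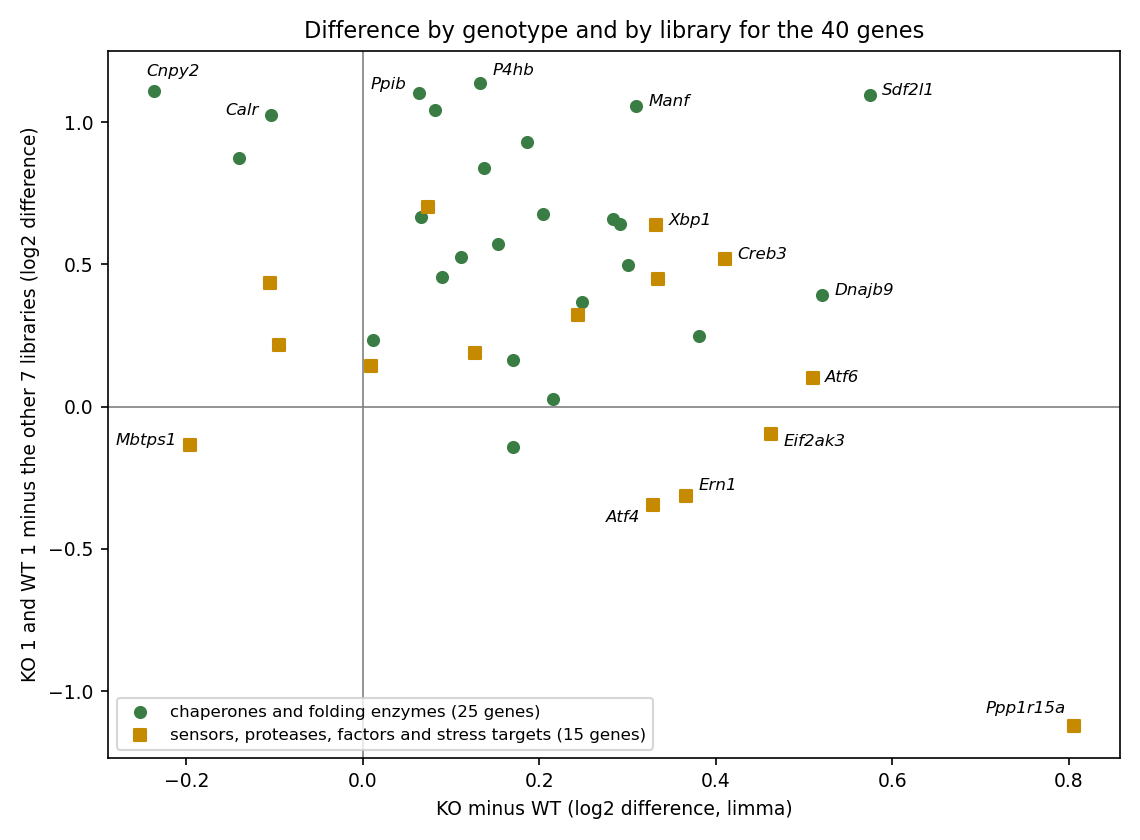
Log2 difference between KO and WT (x axis) and between KO 1 with WT 1 and the other 7 libraries (y axis) for the 40 genes, from the same limma model; green circles are the 25 chaperones and folding enzymes and yellow squares the 15 sensors, proteases, factors and stress targets. The folding genes lie mostly above 0.5 on the y axis, with a median of 0.66, and the signaling genes lower, with a median of 0.19, while both kinds lie mostly to the right of 0.

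Other genes of the pathway outside the 40 were counted as well. Of 20 listed targets of ATF4 and PERK, 13 could be tested, of which 3 rose and 5 fell, against 19.3% and 17.0% of all genes tested, with a median log2 difference of −0.18. *Ddit4*, an inhibitor of mTORC1 signaling, measured 165, 64.8, 60.7, 70.4 and 66.5 FPKM in KO 1 to KO 5, against 442, 140.0, 128 and 117 FPKM in WT 1 to WT 4. It fell by 1.06 on the log2 scale (SE 0.09), and *Slc7a5*, a transporter of large neutral amino acids, and *Phgdh*, which starts serine synthesis, fell by 0.50 (SE 0.05) and 0.43 (SE 0.05). *Sesn2* and *Shmt2* also fell, and the 3 that rose were *Slc3a2*, *Wars* and *Sars*, by 0.31, 0.20 and 0.12. *Asns* and *Chac1*, classic targets of ATF4, stayed too low to be tested, at 0.616 to 1.28 and 0.0396 to 0.254 FPKM in KO libraries and at 0.728 to 1.06 and 0 to 0.149 FPKM in WT libraries.

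Of 38 listed genes of translocation, ER-associated degradation and ER export, which XBP1 and ATF6 control in part, 36 could be tested, 10 rose and 3 fell, against 19.3% and 17.0% of all genes tested, with a median log2 difference of 0.04. *Srpr*, the receptor of the signal recognition particle, rose by 0.23 (SE 0.03), *Sel1l*, the scaffold of the main degradation complex, by 0.28 (SE 0.05) and *Sec24d*, a coat protein of ER export vesicles, by 0.55 (SE 0.10). The 3 genes that fell code for subunits of the translocon and its partner complex (*Sec61b*, *Sec61g* and *Ssr2*), by 0.28, 0.33 and 0.24, and none of these was called without WT 3, while 6 genes were lower without KO 1 or WT 1. The other HSP90 genes were all lower in KO Tregs, with log2 differences of −0.55 (SE 0.04) for cytosolic *Hsp90ab1*, −0.45 (SE 0.03) for cytosolic *Hsp90aa1* and −0.15 (SE 0.04) for mitochondrial *Trap1*.

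Exons of 15 of the 40 genes overlapped another annotated gene, 4 of them on the same strand (*Pdia4*, *Manf*, *Ddit3* and *Mbtps2*), and reads of such genes may be shared, since the sources used here do not state whether strand was used in counting. Recovered reads per gene and library ran from 29 to 18318 over the 40 genes. They were 29 to 134 for *Trib3*, 196 to 1078 for *Sdf2l1*, 221 to 430 for *Ddit3* and 226 to 603 for *Ern1*. For such genes counting error may be a sizable part of the spread between libraries, and this part was not tested.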

How the data were processed

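Splenic GFP+ Tregs of 5 KO and 4 WT samples were profiled by paired-end RNA-Seq, with a kit that the labels call strand-specific. Per the submitters' processing notes, CASAVA, fastp and the mm10 genome were used, without versions; the sources used here do not state the aligner, counter or annotation. The authors deposited FPKM per gene, that is reads divided by gene length and by 1 constant per library, and none of the files used here holds raw counts. Reads recovered from FPKM and GENCODE M21 exon lengths were whole within 0.01 read in all 9 libraries for 24392 of 25500 entries (95.65%) and for 38 of the 40 genes described.

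Genes above 1 FPKM in at least 4 of 9 libraries (12312) were tested with limma 3.58.1 (R 4.3.3, trend) on log2(FPKM + 1), with genotype and 1 term for KO 1 and WT 1, and Benjamini-Hochberg adjustment over all of them. An adjusted p under 0.05 was called. The first component of a principal component analysis, computed on the same genes, set KO 1 and WT 1 apart, and a comparison of KO 2 to KO 5 with all WT libraries would put 1 of them in a single group. The labels do not say that libraries of a genotype came from separate mice, so p-values measure the spread between these samples. Alternatives were other sets of libraries, the omission of each library, a block for the replicate number, a pseudocount of 0.1, no filter and one at 5 FPKM, median-ratio scaling, limma-voom on recovered reads, and B cell or plasma cell markers as a covariate. The test was checked on simulated libraries.

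The genes and lists were chosen with earlier results of these data known. Named with all values are the 12 genes with the smallest p among those called, the 2 with the smallest p per role group, and *Hspa5*, *Xbp1*, *Atf4*, *Ddit3* and *Ern1*, and of each outside list the 3 with the smallest p. Promoter windows are RefSeq sequences of GRCm38.p6. Further tools were pandas 2.3.3 and numpy 2.4.6 under Python 3.11.15, and matplotlib 3.10.9 for plots.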

Additional observations from a re-analysis of the deposited data

Results flagged for a closer look

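Among the 18 named genes, the highest or lowest library of a genotype lay far outside the rest (Dixon's criterion at 95%) in 15 of 36 groups, where chance gives about 1 in 20, and in each case the library was KO 1 (9 genes) or WT 1 (6 genes). KO 1 and WT 1 were both above the rest of their genotype for *Hyou1* (24.3 FPKM in KO 1 and 19.2 FPKM in WT 1), *Manf* (36.0 FPKM in KO 1 and 25.9 FPKM in WT 1), *Canx* (86.0 FPKM in KO 1 and 78.0 FPKM in WT 1), *Cnpy2* (39.6 FPKM in KO 1 and 39.9 FPKM in WT 1) and *Pdia3* (268 FPKM in KO 1 and 232 FPKM in WT 1). KO 1 alone was set apart for *Ero1l* (14.2 FPKM), *Sdf2l1* (44.6 FPKM), *Dnajb11* (43.1 FPKM) and *Xbp1* (52.4 FPKM), and WT 1 alone for *Creb3* (17.1 FPKM).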

How the results depend on the processing

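Across the 20 alternatives, 17 of the 20 genes that rose kept a positive difference, and the others were *Canx*, *P4hb* and *Hspa5*. These alternatives are not all separate. The fits without KO 1, without WT 1 and without both give the same difference, as do the block and the fit without KO 5. Calls were 16 to 21 higher and 1 to 3 lower with a library left out, against 1875 to 2365 higher and 1497 to 2162 lower among all genes tested. The filter was applied anew in each of these fits and shares were not computed, so no excess can be read from these counts. All 20 calls were kept with a pseudocount of 0.1 and with limma-voom (22 higher and 1 lower of 38 genes), and 16 without a filter. Median-ratio scaling, with a factor of 1.006 in each library, could not change the calls. Without the term, 2 rose and 0 fell in all 9 libraries, with 0 and 0 of the ATF4 and PERK targets and 1 and 0 of the ERAD and translocation genes, and KO 2 to KO 5 against WT 1 to WT 4 gave 4 and 0, with 0 ATF4 and PERK targets higher and 4 and 0 ERAD and translocation genes. The B cell covariate gave 10 and 1 (lists 0 and 2, 3 and 0) and the plasma cell covariate 13 and 1 (0 higher, 3 and 0). Of all genes tested, 3.21% rose and 3.55% fell in all 9 libraries without the term. The shares were 6.58% and 6.68% for KO 2 to KO 5 against WT 1 to WT 4. They were 6.86% and 5.90% with the B cell covariate and 11.0% and 9.52% with the plasma cell covariate. Without both KO 1 and WT 1, 6 ERAD and translocation genes fell. With a library left out, the targets of ATF4 and PERK gave 2 to 4 higher and 5 lower, and the ERAD and translocation genes 8 to 11 higher and 0 to 6 lower. Shares of all genes tested were not computed for these fits either.

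Same-numbered libraries deviated together (r = 0.87, 0.43, 0.32 and 0.47), but without KO 1 and WT 1 the correlations were −0.05, −0.17 and 0.03. Differently numbered pairs then ran from −0.28 to 0.20. With so few libraries, these values cannot settle whether the numbers beyond 1 stand for a pairing. With the replicate number as a block, in which KO 5 has no partner and adds nothing, 18 rose and 1 fell (15.0% and 13.1% of all genes tested). Under this block 0 ERAD and translocation genes fell, and *Trap1* (−0.16) was no longer called.

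The direction turned for these genes. For KO 2 to KO 5 against WT 1 to WT 4, the differences were −0.072 for *Canx*, −0.17 for *P4hb*, −0.0043 for *Cnpy4*, −0.067 for *Pdia4*, −0.046 for *Dnajc10*, −0.19 for *Pdia3*, −0.12 for *Dnajc3*, −0.22 for *Ppib*, −0.12 for *Herpud1*, −0.021 for *Creld2*, −0.058 for *Cnpy3* and −0.035 for *Ddit3*. By construction this comparison has WT 1 in a single group. With the plasma cell covariate they were −0.017 for *Hspa5*, −0.19 for *Dnajb9*, −0.51 for *Ppp1r15a*, 0.010 for *Calr* and −0.015 for *Ppib*, and with the B cell covariate −0.75 for *Ppp1r15a* and 0.085 for *Calr*; the cause was not tested. *Cnpy3* and *Ddit3* were near 0 throughout: −0.00079 for *Cnpy3* in all 9 libraries without the term, −0.013 (*Cnpy3*) and −0.0097 (*Ddit3*) without KO 1 and WT 1, −0.011 for *Cnpy3* with the block, and −0.027 to 0.045 (*Cnpy3*) and −0.038 to 0.066 (*Ddit3*) with a library left out. *Hsp90aa1* (−0.49 and −0.67) and *Trap1* (−0.14 and −0.11) were no longer called in all 9 libraries without the term and in KO 2 to KO 5 against WT 1 to WT 4, nor was *Hsp90ab1* (−0.60) in all 9 libraries without the term, nor *Trap1* with the B cell (−0.22) or plasma cell (−0.20) covariate.

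Counting error and the spread between libraries both limit what can be called. Standard errors of the log2 difference ran from 0.03 for *Canx* to 0.35 for *Ppp1r15a*. Genes that did not pass may still differ by small amounts.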
